A study of Mus musculus with 20 samples.

Results

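The interleukin-6 family of cytokines, its receptor chains and the Stat3-Socs3 axis that they drive were followed in whole mouse tracheas with and without a chemical injury, in wild-type and Myd88KO mice. The 10 genes followed were Il6, Il11, Lif, Osm, Osmr, Il6ra, Il6st, Clcf1, Stat3 and Socs3, and every non-control probe whose name on the array equals one of these symbols was taken. This gave 13 of the 41174 different probes on the array, for 9 of the 10 genes, since no probe was named Lif. The 20 samples formed 4 groups of 5: C57/Bl6 wild-type mice without injury, Myd88KO mice without injury, wild-type mice 3 days after 2% polidocanol given into the airway, and Myd88KO mice 3 days after the same exposure. Polidocanol is a detergent that strips the lining epithelium of the trachea. Uninjured mice of both genotypes were untreated controls, and the labels give an age of 4 months for all mice. The knockout removes Myd88 from every cell of the mouse and is not confined to the airway. Knockout mice were bred from one another after back-crossing, apart from the wild-type colony, so genotype and colony cannot be told apart. Mice of both sexes were used, and the sex of single samples was not analysed here.

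Cytokines of this family signal through Il6st, also known as gp130, a receptor chain that is shared by all of them. Each ligand joins it to a partner of its own: Il6 to Il6ra, Il11 to its own receptor, and Osm to Osmr, whereas Clcf1 uses the Cntf receptor together with Lifr. Pairing of the chains activates Jak kinases, which phosphorylate Stat3, and Stat3 then enters the nucleus and raises the transcription of many genes. Socs3 is one of the first of these genes, and its product binds gp130 and the Jak kinases and shuts the signal off. Myd88 is the adaptor through which most Toll-like receptors and the interleukin-1 receptor reach NF-kB, and Il6 is a classical NF-kB target. In airway epithelium Il6 and Stat3 are known for their part in repair after injury and in the acute phase response.

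Signal is given as log2 of the background-subtracted intensity of a probe relative to the 75th percentile of its own array, so that 0 is that percentile. The scale is comparable between arrays for 1 probe and not between probes. Between 57.5% and 67.8% of spots were well above background on an array by the scanner software's own call. Each mean rests on 5 arrays. Each of 5 slides held 1 array of every group, with 1 replicate number per slide. Of the 5 slides, 3 were scanned on the first day (replicates 2, 3 and 4) and 2 on the second (replicates 1 and 5). All 10 markers of tracheal epithelium, cartilage and smooth muscle were tested, and the secretory cell genes Scgb1a1 and Bpifa1 fell with injury in wild-type tracheas by 7.91 and 2.24 on the log2 scale and in Myd88KO tracheas by 6.24 and 2.36 (adjusted p = 0.00287 or lower, with 1 injured Myd88KO array left out of these fits for an outlier spot). The fall of Scgb1a1 was uneven between injured Myd88KO tracheas. It read -1.16 to -0.08 (SD 0.50) in injured wild-type tracheas and -0.84 to 4.79 (SD 2.54) on the 4 injured Myd88KO arrays used. The extent of injury may thus have differed between mice, and its part in the member signals was not tested. The position of the Myd88 probe with respect to the deletion was not analysed here. It read 1.94 to 2.28 in uninjured wild-type, 1.60 to 2.04 in uninjured Myd88KO, 2.36 to 2.80 in injured wild-type and 1.54 to 2.09 in injured Myd88KO tracheas. It was lower in injured Myd88KO than in injured wild-type tracheas by a log2 difference of -0.77 (SE 0.14, adjusted p = 0.00824, called in 9 of 33 alternative settings). In uninjured tracheas the difference was -0.21 (SE 0.14, adjusted p = 1.00), so the Myd88 probe does not tell the uninjured genotypes apart.

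The upstream sequences of Socs3 and Il6 are shown as examples of member genes that carry, upstream of the start of transcription, a sequence of the kind bound by STAT proteins or by NF-kB. RefSeq promoter sequences (build GRCm38.p6) were found for 8 of the 10 genes. Osm and Clcf1 had none in the table. The palindrome TTCNNNGAA, the core that dimers of STAT proteins bind, was searched on both strands in the 250 bases before each start site. It was found in Socs3 alone among the 8 genes, and in 7.02% of all 32851 promoters. The NF-kB consensus, searched the same way and added after the first search, was found in Il6 and Lif and in 7.25% of all promoters. A match of letters is a description and not a measured binding site. Both sequences read 5′ to 3′ on the strand of the gene and end at the base before the start site. Capitals mark the STAT palindrome in Socs3 (minus strand, chr11:117969367-117969616), whose first base lies 154 bases before the start site, and the NF-kB match in Il6 (plus strand, chr5:30012864-30013113), whose first base lies 44 bases before it.
Socs3: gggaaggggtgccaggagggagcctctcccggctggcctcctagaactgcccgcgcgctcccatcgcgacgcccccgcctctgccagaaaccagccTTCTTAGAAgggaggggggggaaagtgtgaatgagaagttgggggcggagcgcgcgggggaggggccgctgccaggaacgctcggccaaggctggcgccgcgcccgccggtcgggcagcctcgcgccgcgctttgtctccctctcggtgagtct
Il6: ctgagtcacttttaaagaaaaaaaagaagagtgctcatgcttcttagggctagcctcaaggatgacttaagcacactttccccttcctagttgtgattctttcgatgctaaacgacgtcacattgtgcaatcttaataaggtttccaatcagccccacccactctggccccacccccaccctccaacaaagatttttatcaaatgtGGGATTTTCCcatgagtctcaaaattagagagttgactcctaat

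Of the 13 member probes, 10 were detected above background on 10 or more of the 20 arrays and were tested together with all other such probes. The Il6 probe (6 of 20 arrays) and both Osm probes (8 and 2 of 20) did not meet this filter. None of the 10 tested probes was differentially expressed at an adjusted p under 0.01 in any of the 5 comparisons made with limma. Over all 26063 tested probes the share called was 5.26% for injury in wild-type tracheas, 0.376% for injury in Myd88KO tracheas, 0.384% between uninjured genotypes, 0.38% between injured genotypes and 0% for the difference between the injury responses. At an unadjusted p under 0.05 there were 4 member probes for injury in wild-type, 0 for injury in Myd88KO, 1 between uninjured genotypes, 2 between injured genotypes and 2 for the difference between responses. Over all tested probes the shares at this limit were 26.4%, 19.5%, 5.59%, 12.5% and 10.4% in the same order. With 10 probes, each of these counts lies within 2 probes of the number that the share over all probes would give. At an adjusted p under 0.05, a limit applied after the values were seen, 2 of the 10 stood out with injury in wild-type tracheas, Socs3 (higher) and 1 probe of Il6ra (lower), where the share over all probes was 12.7%. The median difference with injury over the 10 tested probes was 0.31 in wild-type and 0.05 in Myd88KO tracheas, against 0.00 and -0.07 over all tested probes.

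Whether the arrays of 2 groups overlap is a plainer reading. With injury, all 5 injured wild-type arrays lay on one side of all 5 uninjured wild-type arrays for 5 of the 13 member probes (Osm probe 1, Il6ra probe 1, Il6st, Clcf1 and Socs3). Of the 10 tested member probes this was 4, where 12.5% of all tested probes did so. In Myd88KO tracheas this was so for 0 of the 10 tested, against 3.41% of all tested probes, and for none of the 3 untested. Between uninjured genotypes it was so for Il11 alone (1 of the 10 tested, against 2.5%), and between injured genotypes for 0 of 10, against 1.94%.

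Il6 was at or near the limit of detection. Its probe, spotted 10 times on each array, was not well above background on any of the 10 uninjured arrays, where it read -5.12, -6.61, -7.31, -7.08 and -6.34 in wild-type and -6.40, -7.08, -6.46, -7.26 and -6.44 in Myd88KO tracheas (replicates 1 to 5 in order, as in all lists of values here). In injured wild-type tracheas it read -1.23, -4.38, -3.78, -6.23 and 0.57, and all but replicate 4 were well above background. In injured Myd88KO tracheas it read -6.69, -4.43, -6.01, -3.20 and -6.25, and only replicates 2 and 4 were well above background. With the background subtraction of the deposited signal, the injured wild-type mean was at least 3.52-fold above the uninjured one, a bound taken against the detection floor of each uninjured array (the dimmest signal still called well above background) or the probe's reading where that was higher. Il6 was thus detected in injured tracheas of both genotypes and in no uninjured one. A 2-sided exact permutation test over the arrays gave p = 0.0159 for injury in wild-type and 0.0556 in Myd88KO tracheas, and 0.151 between injured genotypes. The smallest p that 5 against 5 arrays allow in this exact permutation test is 0.00794, and these are 3 of 12 such unadjusted tests made on Il6 and Osm. With no filter on dim probes, limma gave an adjusted p of 0.0265 for Il6 with injury in wild-type tracheas. The size of the Il6 difference depended on the background correction and on 1 array. It was 3.48 on the log2 scale as measured, 1.34 with normexp background correction (exact permutation p = 0.0794) and 2.59 without injured wild-type replicate 5 (exact permutation p = 0.0317), and the bound does not cover the normexp values. On the 4 slides whose injured wild-type array detected Il6 the uninjured array did not, and on the slide of replicate 4 neither did. The difference between injured genotypes was 0.25 over the 3 slides of the first scanning day and -6.14 over the 2 slides of the second, so its direction did not hold within both days.

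Osm, the ligand known as oncostatin M and made by neutrophils and macrophages among other cells, gave the same picture at its brighter probe. Osm probe 1 read -4.43, -4.84, -5.24, -5.0 and -4.97 in uninjured wild-type tracheas, none of them well above background. After injury it read -3.62, -3.37, -3.20, -3.63 and -2.57 in wild-type tracheas, all well above background and all above every uninjured wild-type array. In Myd88KO tracheas it read -4.94, -5.44, -4.54, -6.09 and -4.05 without injury, with only replicate 5 well above background, and -4.89, -3.20, -5.07, -2.31 and -4.42 with injury. Here the injured arrays that were well above background were again replicates 2 and 4, and the others lay within the range of the uninjured ones. With the background subtraction of the deposited signal, the injured wild-type mean was 3.07-fold above the uninjured one (2-sided exact permutation p = 0.00794). The bound taken as for Il6 was 2.80-fold. Uninjured wild-type replicate 1 read above the floor of its array (-4.70) and was still not called, so this floor is not a firm limit of detection. The log2 difference was 1.62 as measured and 0.54 with normexp background correction (exact permutation p = 0.0159), and the bound does not cover the normexp values. With injury in Myd88KO tracheas the log2 difference was 1.03 (exact permutation p = 0.143), and between injured genotypes it was -0.70 (exact permutation p = 0.254). The wild-type difference was 1.63 over the slides of the first scanning day and 1.61 over those of the second. The second Osm probe was well above background on 2 arrays, injured wild-type replicate 5 and injured Myd88KO replicate 4. Its log2 difference with injury in wild-type was 1.23 (exact permutation p = 0.0317), and this was 0.97 (exact permutation p = 0.0556) without wild-type injury replicate 5 and 0.19 (exact permutation p = 0.302) with normexp background correction.

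Il11, a ligand best known in fibroblasts and in platelet formation, was well above background on all 20 arrays. It read -2.0, -2.07, -2.92, -2.38 and -2.14 in uninjured wild-type and -1.89, -1.55, -0.67, -1.89 and -1.46 in uninjured Myd88KO tracheas, so the uninjured genotypes did not overlap. The log2 difference was 0.81 (95% interval 0.31 to 1.31, 1.75-fold), which did not pass after adjustment over all probes (adjusted p = 0.258, 0.108 to 0.755 over 33 alternative settings). It was 1.09 over the slides of the first scanning day and 0.39 over those of the second. The summed signal of 5 adipocyte markers, in multiples of the 75th percentile, also separated the uninjured genotypes, at 64.0 to 114 in wild-type and 153 to 209 in Myd88KO tracheas. Within uninjured Myd88KO tracheas this sum was 209 in replicate 1 and 158 in replicate 3, where Il11 read -1.89 and -0.67. The part of adipocytes in the Il11 difference was not tested. After injury Il11 read -2.22 to -1.84 in wild-type tracheas, around a median of -1.99. In Myd88KO tracheas it read -2.43 to -1.34, around a median of -2.12, and the genotypes overlapped with a difference of 0.06 (adjusted p = 0.947). The difference between the injury responses was -0.75 (95% interval -1.46 to -0.04, unadjusted p = 0.0396, adjusted p = 0.469).

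Clcf1, a ligand of the Cntf receptor, was also well above background on every array. It read -3.27 to -3.09 in uninjured and -2.96 to -2.51 in injured wild-type tracheas without overlap, a difference of 0.36 (SE 0.23, adjusted p = 0.349). In injured Myd88KO tracheas it read -3.83, -2.42, -2.48, -2.30 and -3.30. These values ran from below the lowest to above the highest array of either uninjured group. The SD was 0.67 in injured Myd88KO and 0.18 in injured wild-type tracheas.

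**Figure D1:**
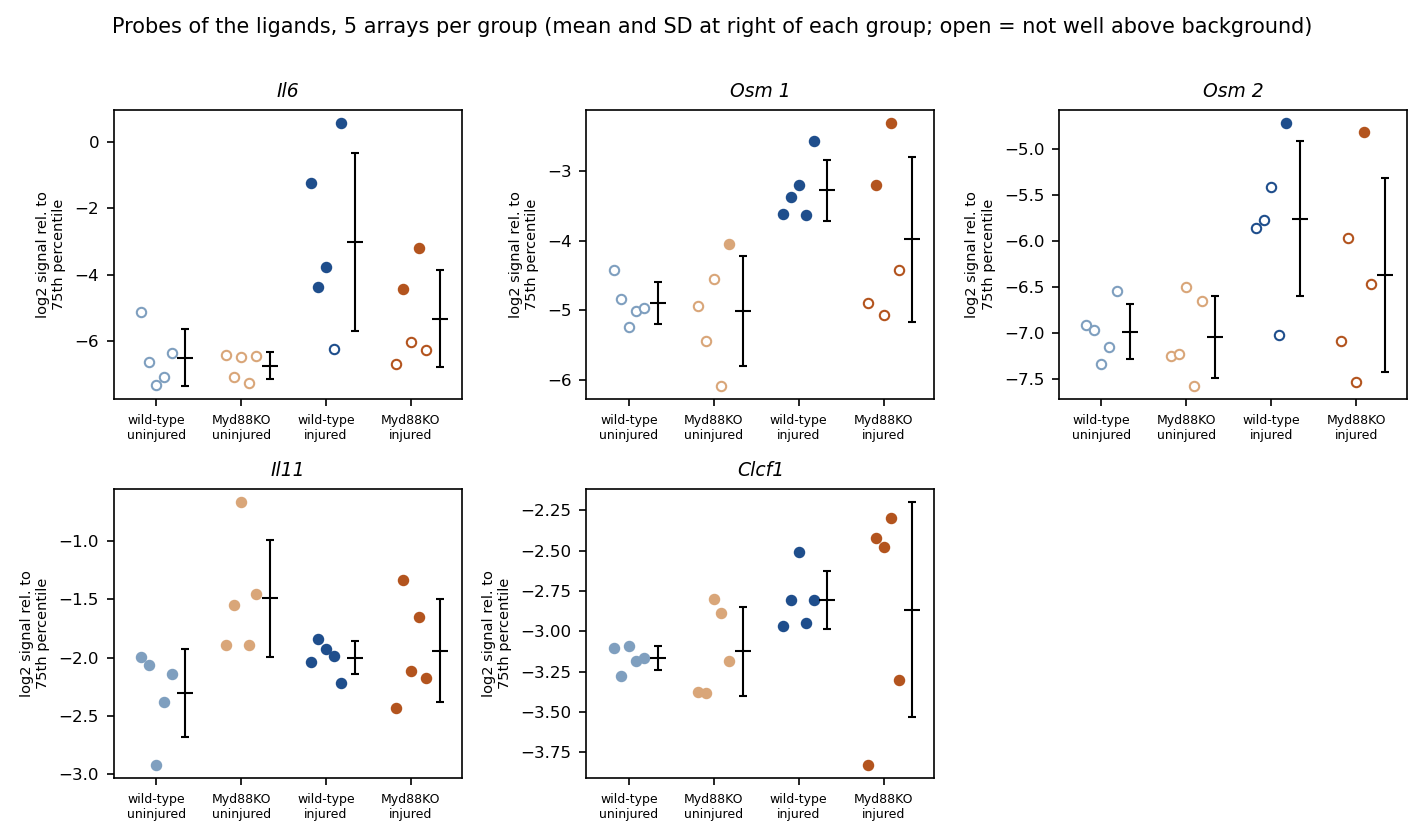
Log2 signal relative to the 75th percentile of the array (vertical axis) for the probes of Il6, Osm, Il11 and Clcf1 in the 4 groups, 1 point per array in replicate order, filled where the probe was well above background, with the mean and SD of each group as a bar. For Il6 and Osm probe 1 the injured Myd88KO arrays split into 2 that were well above background and 3 that were not, and Il11 separates the uninjured genotypes.

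Among the receptor chains, Osmr, the partner chain for oncostatin M, had 2 probes. Osmr probe 1 was well above background on all arrays and read 2.16, 1.65, 1.33, 1.73 and 2.03 in uninjured and 2.99, 1.84, 2.39, 1.57 and 3.08 in injured wild-type tracheas. The groups overlapped, and the difference was 0.59 (95% interval 0.09 to 1.1, unadjusted p = 0.0238, adjusted p = 0.118). In Myd88KO tracheas it read 1.52 to 1.87 without injury and 1.77 to 2.24 with injury, a difference of 0.27 (adjusted p = 0.590). The dimmer probe 2 showed a difference of 0.27 in wild-type and 0.26 in Myd88KO tracheas, with adjusted p of 0.669 and 0.727. The difference between injured genotypes for probe 1 was 0.12 over the slides of the first scanning day and -1.19 over those of the second.

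Il6ra, the chain that binds Il6 itself, gave different readings at its 2 probes. Probe 1 read -1.79, -1.51, -1.51, -1.91 and -1.75 in uninjured and -2.39, -2.37, -3.03, -2.49 and -2.57 in injured wild-type tracheas. Every injured array lay below every uninjured one, and the injured array was the lower on all 5 slides. The difference was -0.87 (95% interval -1.45 to -0.30, SE 0.28), 0.55 of the uninjured signal, with an adjusted p of 0.0433. This was above the threshold of 0.01 in the fit of all 20 arrays and below it (adjusted p = 0.00482) when only the 10 wild-type arrays were fitted. It ranged up to 0.105 over 33 alternative settings. In injured Myd88KO tracheas probe 1 read -3.47, -2.28, -2.20, -2.07 and -1.94, and replicate 1 stood apart from the other 4. Its difference with injury in Myd88KO tracheas was -0.44 (adjusted p = 0.399). Probe 2 of Il6ra read -4.07 to -3.05 in uninjured and -4.21 to -3.35 in injured wild-type tracheas, a difference of -0.07 (95% interval -0.63 to 0.49, adjusted p = 0.894). The lower signal of Il6ra after injury was therefore measured at 1 of the 2 probes.

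Il6st, the shared chain gp130, was well above background throughout. It read 2.72, 2.98, 2.97, 3.17 and 2.68 in uninjured and 3.24, 3.22, 3.24, 3.18 and 3.22 in injured wild-type tracheas. The injured wild-type arrays had an SD of 0.02 and lay above all uninjured ones, by 0.32 on average (SE 0.17, adjusted p = 0.254). In Myd88KO tracheas Il6st read 2.79 to 3.26 without injury and 2.19, 3.21, 2.95, 3.26 and 2.77 with injury, a difference of -0.10 (95% interval -0.46 to 0.26, adjusted p = 0.803). The difference between the responses was -0.41 (95% interval -0.92 to 0.09, adjusted p = 0.552).

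Stat3, the transcription factor of the axis, was measured by a probe to its reference transcript, spotted 10 times, and by a second probe to a separate cDNA record. Probe 1 read 4.67, 3.86, 3.82, 4.01 and 4.58 in uninjured and 4.84, 4.47, 4.52, 4.45 and 4.79 in injured wild-type tracheas. The groups overlapped, but on each of the 5 slides the injured array was the higher, by 0.17 to 0.70. The difference was 0.43 (95% interval 0.04 to 0.81, unadjusted p = 0.0325, adjusted p = 0.143, 0.0432 with the slide as a replicate block). In Myd88KO tracheas probe 1 read 4.48, 4.23, 4.37, 4.08 and 4.53 without injury and 4.18, 4.40, 3.76, 4.07 and 4.53 with injury, a difference of -0.15 (95% interval -0.54 to 0.24, adjusted p = 0.707). On every slide the injured Myd88KO array was below the injured wild-type array, by -0.07 to -0.75, with a mean of -0.42 (unadjusted p = 0.0333, adjusted p = 0.345). This difference was -0.40 over the slides of the first scanning day and -0.46 over those of the second. The difference between the injury responses was -0.58 (95% interval -1.12 to -0.03, unadjusted p = 0.0406, adjusted p = 0.469). Stat3 probe 2 was dim, at -4.10 to -3.26 in uninjured wild-type tracheas, though well above background on all 20 arrays. It differed by 0.00 with injury in wild-type (95% interval -0.54 to 0.54, adjusted p = 0.999) and by -0.35 in Myd88KO tracheas (adjusted p = 0.485).

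Socs3, the feedback inhibitor that Stat3 induces and the member with the STAT palindrome shown above, had the widest difference with injury among the 10 tested member probes. It read 3.00, 2.54, 2.77, 2.17 and 2.71 in uninjured and 4.26, 3.51, 3.69, 3.02 and 5.11 in injured wild-type tracheas. Every injured array lay above every uninjured one, and the injured array was the higher on all 5 slides, by 0.86 to 2.40. The difference was 1.28 (95% interval 0.49 to 2.07, SE 0.38), or 2.43-fold, with an adjusted p of 0.0312, above the threshold of 0.01. With array weights it was 1.46 and passed the threshold (adjusted p = 0.00760). Without injured wild-type replicate 5 it was 0.98 (adjusted p = 0.0836). In Myd88KO tracheas Socs3 read 2.62, 1.71, 1.76, 2.46 and 2.51 without injury and 2.24, 3.89, 2.17, 3.78 and 2.56 with injury. Injured replicates 2 and 4 lay above every uninjured Myd88KO array, and replicates 1, 3 and 5 lay within the uninjured range. The difference was 0.72 (95% interval -0.08 to 1.51, adjusted p = 0.311). Between injured genotypes it was -0.99 (95% interval -1.78 to -0.20, unadjusted p = 0.0170, adjusted p = 0.271), and between uninjured genotypes -0.43 (adjusted p = 1.00). The injured difference was -0.13 over the slides of the first scanning day and -2.28 over those of the second, and -0.60 (adjusted p = 0.716) without slide 5. The injury response of Socs3 in Myd88KO was 56.0% of that in wild-type tracheas on the log2 scale, and the difference between the responses, -0.56, had a 95% interval of -1.68 to 0.56 (adjusted p = 0.718).

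**Figure D2:**
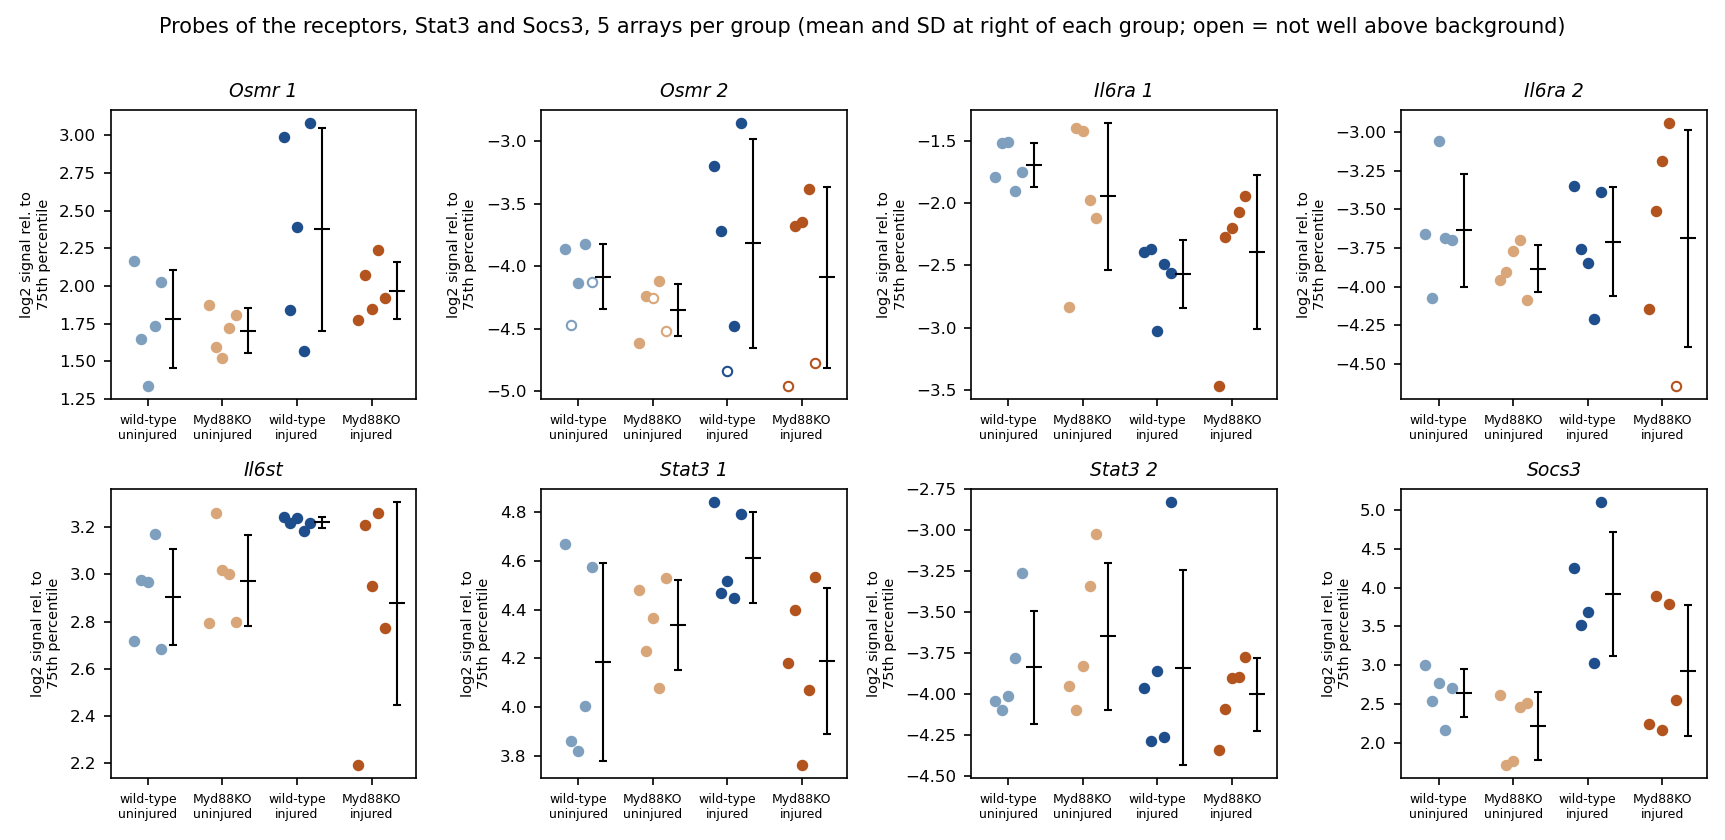
Log2 signal relative to the 75th percentile of the array (vertical axis) for the probes of Osmr, Il6ra, Il6st, Stat3 and Socs3 in the 4 groups, 1 point per array in replicate order, filled where well above background, with the mean and SD of each group as a bar. Injured wild-type arrays lie above the uninjured ones for Socs3 and Il6st and below them for Il6ra probe 1, and injured Myd88KO arrays 2 and 4 lie highest for Socs3.

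**Figure D3:**
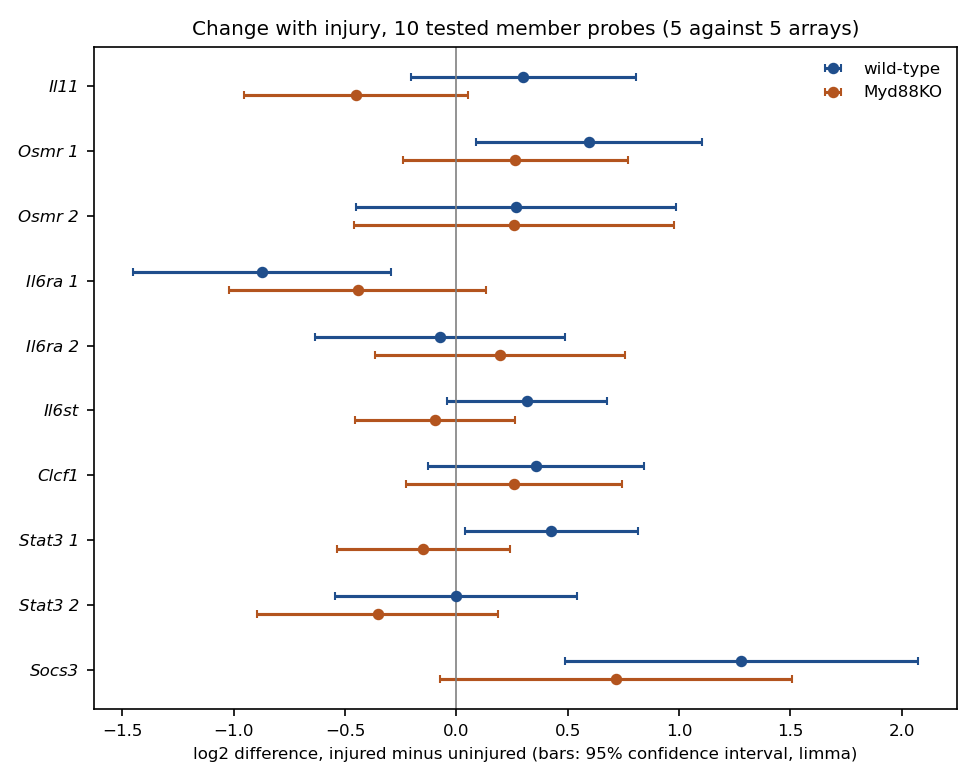
Log2 difference between injured and uninjured tracheas (horizontal axis) for the 10 tested member probes, in wild-type (blue) and Myd88KO mice (orange), with the 95% confidence interval from limma over 5 against 5 arrays as a bar. In wild-type tracheas the interval leaves out 0 for Osmr probe 1, Il6ra probe 1, Stat3 probe 1 and Socs3, and in Myd88KO tracheas all 10 intervals hold 0.

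Among injured arrays of each genotype, those with the highest Il6, Osm and Socs3 also had the highest neutrophil, fibroblast and endothelial markers. The summed signal of the brightest probes of 10 neutrophil genes, in multiples of the 75th percentile, was 3.62 to 34.3 in uninjured wild-type and 1.22 to 3.29 in uninjured Myd88KO tracheas. After injury it was 16.7 to 262 in wild-type and 1.30 to 43.2 in Myd88KO tracheas. The highest uninjured array, wild-type replicate 1 (34.3), lay above 2 injured wild-type arrays and injured Myd88KO replicate 2 in this sum, while Il6 and Osm were not well above background on it. The calgranulin gene S100a9 made up 21.9% to 88.8% of the sum on an array. Without S100a9 the sum was 1.09 to 4.00 in uninjured and 5.06 to 45.0 in injured wild-type tracheas, and 0.92 to 1.90 in uninjured Myd88KO tracheas. In injured Myd88KO tracheas it was then 4.93 and 6.11 in replicates 2 and 4 and 0.996 to 1.28 in the other 3. Within injured Myd88KO tracheas the sum was 3.21, 19.7, 1.82, 43.2 and 1.30, so replicates 2 and 4 stood highest, as they did for Il6, Osm, Clcf1, Il6st and Socs3. Within injured wild-type tracheas it was 56.5, 19.4, 62.0, 16.7 and 262, and replicate 5 also gave the highest Il6, Osm, Osmr and Socs3 signal while replicate 4 gave the lowest Il6, Osm, Osmr probe 1 and Socs3 signal. Of the 10 neutrophil genes, 7 were tested, and Csf3r, the granulocyte colony-stimulating factor receptor, and Mmp9, a gelatinase of neutrophil granules, rose with injury in wild-type tracheas (4.05 and 2.22, adjusted p = 0.00380 and 0.00419). None was called in Myd88KO tracheas, where Csf3r differed by 2.73 (adjusted p = 0.0752) and Mmp9 by 0.39 (adjusted p = 0.687). By probe these calls were 3 of 9 in wild-type and 0 in Myd88KO, against 3.24% and 0.134% of all tested probes called higher. Csf3r was well above background on 2 uninjured and 5 injured wild-type arrays, and on 0 uninjured and 3 injured Myd88KO arrays. It thus passed the filter mainly through the injured groups, and its differences are taken from uninjured readings near background. Elane and Ngp, made in immature neutrophils, were well above background on no array of any group. Camp was so on 1 uninjured and 1 injured wild-type array only. The list did not move as one, since Mpo was well above background on 4 or 5 arrays of every group and changed little. Its mean was -4.17 in uninjured and -3.89 in injured wild-type tracheas, and -3.90 and -4.10 in Myd88KO tracheas. Of 8 macrophage and monocyte genes, all tested, 5 rose with injury in wild-type (Adgre1, Cd68, Csf1r, Itgam and Ms4a7) and 0 in Myd88KO tracheas. By probe this was 6 and 0 of 13 tested probes, against 3.24% and 0.134% of all tested probes called higher. The marker lists were chosen with earlier results of these data known, so these shares are descriptions and not separate evidence. The median difference over those 13 probes was 1.55 in wild-type and 0.98 in Myd88KO tracheas. The summed signal of the 8 genes was 313 to 556 in uninjured and 343 to 536 in injured wild-type tracheas. In Myd88KO tracheas it was 286 to 496 and 291 to 469. On every array 83.9% to 95.9% of the sum was Lyz2, the lysozyme gene. Without Lyz2 the sum was 17.8 to 32.6 in uninjured and 32.3 to 70.1 in injured wild-type tracheas. In injured Myd88KO tracheas it was then 46.7 and 51.4 in replicates 2 and 4 and 18.8 to 21.5 in the other 3, against 16.8 to 23.6 without injury. The summed signal of 6 fibroblast markers was 560 to 1018 in injured wild-type and 340 to 637 in injured Myd88KO tracheas, with overlap. It was 407, 637, 428, 543 and 340 in injured Myd88KO tracheas, and highest in injured wild-type replicate 5. The endothelial marker sum was 11.7, 20.9, 15.0, 18.5 and 14.4 in injured Myd88KO tracheas, and also highest in injured wild-type replicate 5 (31.2). This order was thus not particular to neutrophil markers. The T cell, adipocyte, skeletal muscle, thyroid and tracheal sums did not share it. In whole tissue, more cells of a type and more RNA per cell cannot be told apart, and the part that these cells had in the member signals was not tested.

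**Figure D4:**
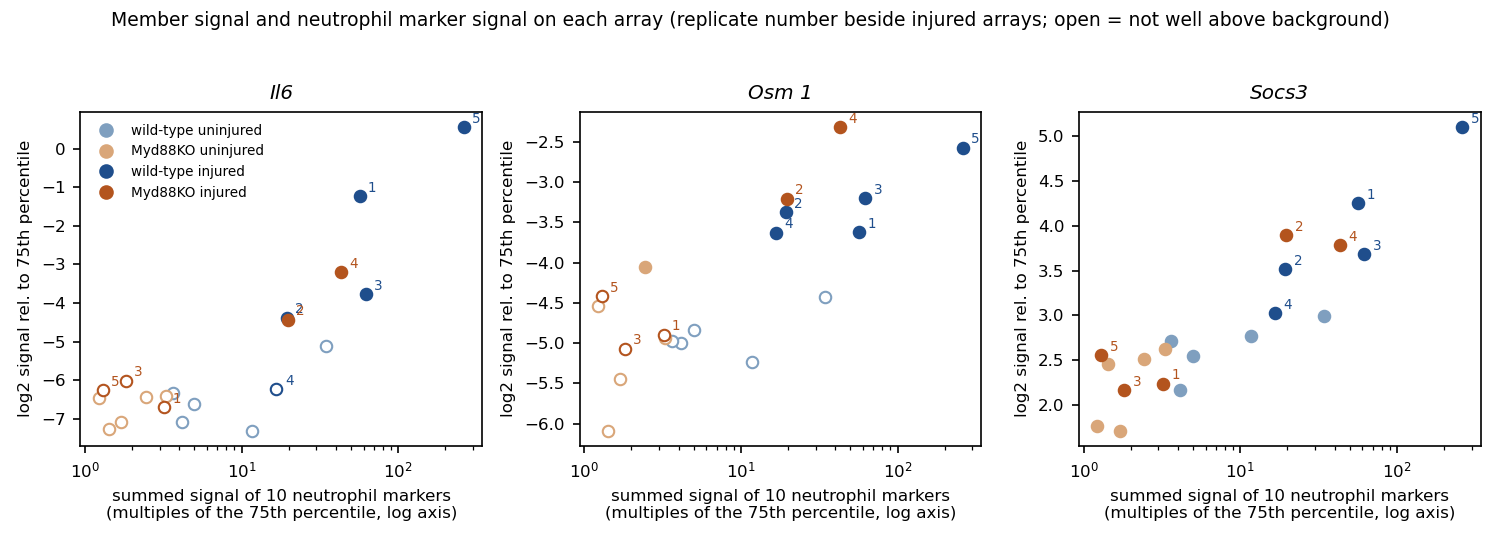
Log2 signal of Il6, Osm probe 1 and Socs3 (vertical axes) against the summed signal of 10 neutrophil marker genes on the same array (horizontal axis, multiples of the 75th percentile, log scale), 1 point per array, with replicate numbers beside injured arrays and open points where the member was not well above background. Injured Myd88KO replicates 2 and 4 (marker sums 19.7 and 43.2) lie among or above the injured wild-type arrays, and replicates 1, 3 and 5 (1.30 to 3.21) lie among the uninjured arrays.

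The rest of the pathway was examined through a list of 34 further ligands, receptors, kinases, STATs, inhibitors and adaptors, of which 31 were tested. With injury in wild-type tracheas 1 of the 31 genes (1 of 57 tested probes, against 5.26% of all tested probes) was called, the phosphatase Ptpn6, also known as SHP-1, which dampens Jak signalling. Ptpn6 probe 1 rose by 1.12 (SE 0.26, adjusted p = 0.00758), whereas its 2 other probes differed by 0.11 and -0.01. Those 2 probes were dim, with means of -3.33 and -4.45 in uninjured wild-type tracheas. The count of genes called ran from 0 to 2 when single arrays were left out. In Myd88KO tracheas and between genotypes 0 of 31 were called. The median difference with injury over the tested probes of the list was 0.08 in wild-type and -0.17 in Myd88KO tracheas. Uninjured and injured wild-type tracheas did not overlap for 5 of the 57 tested probes, against 12.5% of all tested probes. Besides Ptpn6 these were Ebi3, a subunit of the related cytokines Il27 and Il35 (1.35, adjusted p = 0.0140), the adaptor Shc1 (0.51, adjusted p = 0.0335), the ligand Ctf1, known as cardiotrophin (-0.64, adjusted p = 0.0238), and Cish, a feedback inhibitor of the Socs family (-0.89, adjusted p = 0.0768). These 4 were picked out after their values were seen. Lifr, the chain that Lif and Clcf1 use, had 5 tested probes, and probe 1, the brightest, differed by 0.21 with injury in wild-type (adjusted p = 0.377) and by -0.44 in Myd88KO tracheas (adjusted p = 0.0949, no overlap). At its other 4 probes the Myd88KO difference was -0.17 to -0.50. Both probes of Il11ra1, the receptor of Il11, were lower in injured Myd88KO than in injured wild-type tracheas without overlap, by -0.52 and -0.49 (adjusted p = 0.318 and 0.334). With injury in Myd88KO tracheas 3 of the 57 tested probes did not overlap, against 3.41% of all tested probes. Between injured genotypes it was 2 of 57, against 1.94%.

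Genes known to be raised by Stat3 or gp130 signalling were followed as a list. Stat3 activity itself was not measured. Of a list of 34 such genes, many of which also answer to NF-kB, 31 were tested and 8 rose with injury in wild-type tracheas (Saa3, Timp1, Serpina3n, Lcn2, Ccl2, Birc5, Lrg1 and Il4ra), while 0 fell. By probe this was 10 of 48 tested probes of the list, where 3.24% of all tested probes were called higher in this comparison. Timp1 counted with more than 1 probe. The list was chosen with earlier results of these data known, so the higher share is a description and not separate evidence of a Stat3 response. Saa3, an acute phase serum amyloid, rose by 7.58 (SE 1.1, adjusted p = 0.000407). It was well above background on only 3 of 5 uninjured wild-type and 0 of 5 uninjured Myd88KO arrays, against 5 and 4 injured ones. It thus passed the filter mainly through the injured groups, and its differences are taken from near background. In wild-type tracheas the difference ran from 5.59 to 8.22 over 32 alternative settings. Timp1, an inhibitor of metalloproteinases, rose by 4.08 (SE 0.65, adjusted p = 0.000792) at its brightest probe, and Serpina3n, a secreted protease inhibitor, by 3.96 (SE 0.49, adjusted p = 0.000116). Lcn2, which binds bacterial siderophores, rose by 3.62 (SE 0.67, adjusted p = 0.00207), and Ccl2, the monocyte chemoattractant, by 3.32 (SE 0.49, adjusted p = 0.000482). Birc5, the mitotic protein survivin, rose by 2.60 (adjusted p = 0.00439), Lrg1, an acute phase glycoprotein, by 1.73 (adjusted p = 0.00193), and Il4ra, the Il4 receptor chain, by 1.38 (adjusted p = 0.00986). The median difference over the tested probes of the list was 0.25, against 0.00 over all probes.

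In Myd88KO tracheas 0 of the 31 target genes were called with injury, where 0.134% of all tested probes were called higher. The genes named next were picked by their wild-type values, a choice that by itself favours smaller differences in Myd88KO tracheas. Saa3 differed by 4.12 (adjusted p = 0.0458), Timp1 by 2.06 (adjusted p = 0.0865) and Serpina3n by 1.39 (adjusted p = 0.123). Ccl2 differed by 1.17 (adjusted p = 0.200) and Lcn2 by 0.82 (adjusted p = 0.540). The Saa3 difference ran from 1.87 to 5.48 over 32 alternative settings. The count of target genes called in Myd88KO tracheas also varied. The count was 3 (Timp1, Saa3 and Birc5) without injured Myd88KO replicate 5. It was 6 with array weights, which lowered the weight of injured Myd88KO replicates 1 and 5 most (0.320 and 0.323). None of the 31 genes was called for the difference between the responses, where Lcn2 had -2.80 and Serpina3n -2.57 (adjusted p = 0.391 for both), and 0 of 26063 probes were called. Between injured genotypes 1 gene was called, Lcn2, which was lower in Myd88KO tracheas by -3.95 (SE 0.67, adjusted p = 0.00381) without overlap. Lcn2 was also lower without overlap before injury, at -4.26 to -3.70 in Myd88KO against -3.46 to -1.78 in wild-type tracheas (-1.15, adjusted p = 1.00). Lcn2 was well above background on 3 of 5 injured and 4 of 5 uninjured Myd88KO arrays, so the size of these differences is taken partly from readings near background. The call between injured genotypes held in 22 of 32 alternative settings. It was lost with the slide as a replicate block and, among others, without injured wild-type replicate 1 or 5 and without injured Myd88KO replicate 1, 3 or 5. Injured genotypes did not overlap for 4 of the 48 tested probes of the list (Lcn2, Saa3, Ccnd1 and Steap4 probe 1), against 1.94% of all tested probes. Saa3 differed by -5.40 (adjusted p = 0.0205) and Ccl2, with overlap, by -2.42 (adjusted p = 0.0207). Serpina3n differed the other way before injury, being higher in uninjured Myd88KO than in uninjured wild-type tracheas by 2.42 without overlap (adjusted p = 0.0185). It differed by -0.15 between the injured genotypes (adjusted p = 0.934). Lcn2 and Serpina3n were 2 of 48 tested list probes without overlap between uninjured genotypes, near the 2.5% of all tested probes.

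**Figure D5:**
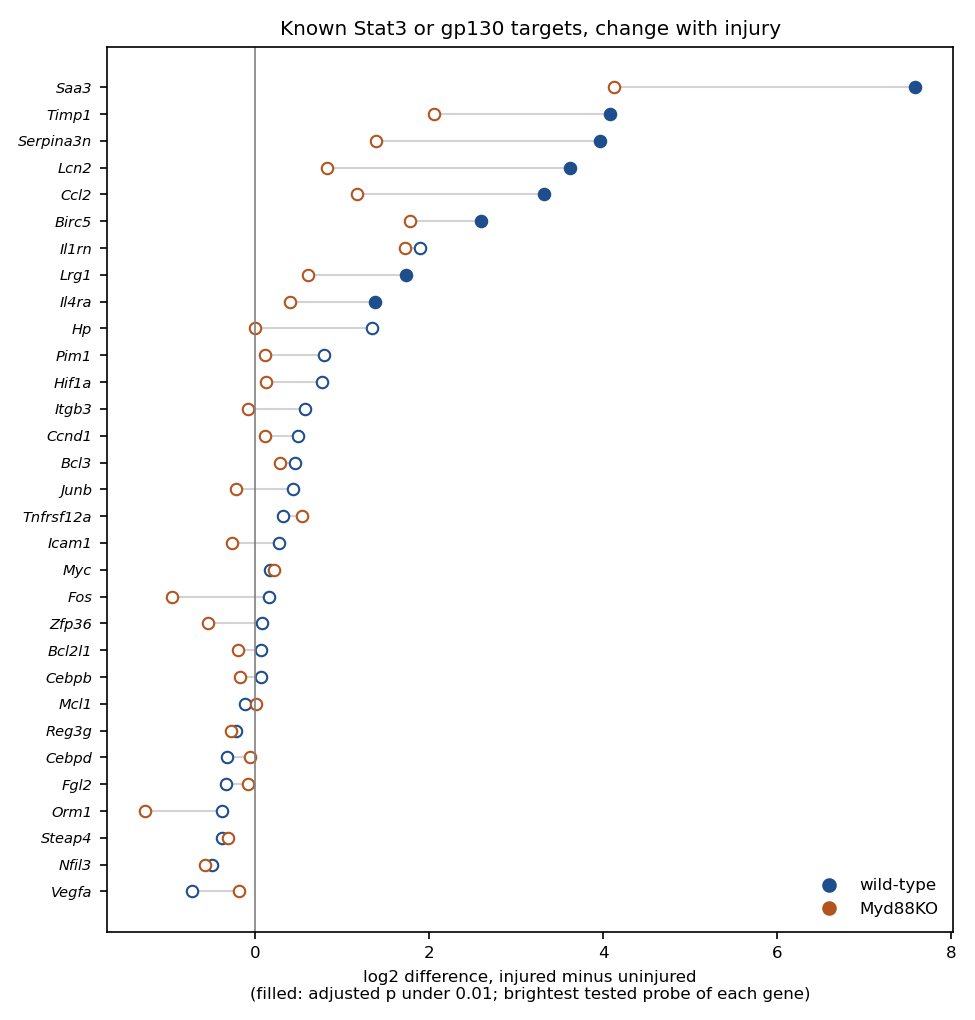
Log2 difference between injured and uninjured tracheas (horizontal axis) for the 31 tested genes known to be raised by Stat3 or gp130 signalling, at the brightest tested probe of each, in wild-type (blue) and Myd88KO mice (orange), filled where the adjusted p was under 0.01. All 8 genes called in wild-type tracheas lie to the right of 0, and their Myd88KO points are open and nearer to 0. These 8 were picked by their wild-type values, so their place at the right follows from that choice. The same choice favours smaller differences in Myd88KO tracheas.

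The genes whose profile over the 20 arrays was closest to that of each member were found by the smallest root mean square difference of log2 signals, each centred on the uninjured wild-type mean. For Socs3 they were Neurl3, Ebi3 and Rab8b, at 0.30, 0.32 and 0.33, where the root mean square of Socs3 itself was 0.90. For Stat3 probe 1 they were Vkorc1, BC010304 and Ptprj (0.12 to 0.13, against 0.34), and for Il6st Zcchc24, St6galnac6 and Slc12a4 (0.12 to 0.14, against 0.28). For Osmr probe 1 they were Fam102b, Phldb2 and Ccbe1 (0.18 to 0.20, against 0.47), and for Il6ra probe 1 Galm, Avil and Tmem41b (0.26 to 0.34, against 0.70). For Il11 they were Efna5, Limd2 and Cdk18 (0.28 to 0.29, against 0.58), and for Clcf1 Itga6, Cacna1c and Grk6 (0.18 to 0.19, against 0.41). Ebi3 was the only one of these 21 genes that was also on the list of pathway genes, and these are likenesses among the arrays used above and not separate evidence.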

How the data were processed

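RNA of 20 whole tracheas was hybridised with a single dye to Agilent mouse oligonucleotide arrays, 1 array per sample. For each array the authors deposited the scanner output of Agilent Feature Extraction 9.5.1.1 (version per the file headers), which holds an intensity per spot, background-subtracted and not scaled between arrays, and a value table of the same intensities (ratio of table to scanner value 0.995 to 1.00), used as an alternative. Control spots and 1960 outlier spot values were left out here (10 of them of member probes), spots of 1 probe were averaged, and log2 intensity was set relative to the 75th percentile of each array. The 26063 probes detected above background on 10 or more of the 20 arrays were fitted with limma 3.58.1 in R 4.3.3 (lmFit, contrasts, eBayes), all 20 arrays together, without a block. Benjamini-Hochberg adjustment covered all tested probes of a comparison, with 0.01 as the threshold for a call. The filter and threshold follow the study's methods, whose one-way parametric test was run as an alternative. Probes below the filter were compared by exact permutation tests over arrays. The fit was tested on simulated data. The members, the gene lists and the rule for named genes (all members, called pathway genes with Lifr and Il11ra1, markers that move with a member, Myd88, the 8 Stat3 targets of lowest adjusted p in wild-type injury, the 3 nearest profiles of each member) were chosen with earlier results of these data known. The genome build of probe positions is not given in the sources used here, so none are printed. The limma p-values set a difference between group means against the spread between these samples, estimated over the 4 groups together. The permutation p-values rank such a difference among all regroupings of the arrays. The NF-kB search, the adjusted limit of 0.05, the runs without slide 5 and the list counts under each alternative were added after seeing the data.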

Additional observations from a re-analysis of the deposited data

Results flagged for a closer look

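In 1 of the 52 sets of 5 arrays formed by the 13 member probes and the 4 groups, 1 array lay far from the others by Dixon's test at its 95% level, which flags about 1 in 20 such sets by chance. This was Il6ra probe 1 in injured Myd88KO tracheas, where replicate 1 read -3.47 and the next lowest array -2.28. The same array was the lowest of its group for Il6, Il6st, Clcf1, Il11, Stat3 probe 2 and both Osmr probes, and it had the lowest weight of all 20 arrays in the fit with array weights (0.320).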

How the results depend on the processing

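The call of no member probe with injury in wild-type tracheas held in every run that left out 1 array (0 to 0). It became 1 with array weights (Socs3), 1 when only the 2 groups were fitted (Il6ra probe 1), 1 by the methods' one-way test (Il6ra probe 1) and 2 at an adjusted p under 0.05. Of the 50 differences fitted for tested member probes, 13 took the other sign under some alternative, and 0 of the 9 with an unadjusted p under 0.05 did. With no filter 0 member probes stayed untested, and with the stricter filter 5 did, since Osmr probe 2 and Il6ra probe 2 were lost too. For Stat3 targets between injured genotypes the count of 1 became 2 with normexp background and with the scanning day as a block, 0 with the stricter filter, array weights, only 2 groups, the one-way test or without slide 5, and 3 at 0.05, and it was 0 to 2 when single arrays were left out. For Stat3 targets with injury in Myd88KO tracheas the count of 0 became 6 with array weights, 2 without slide 5 and 1 at 0.05, and was 0 to 3 when single arrays were left out. The pathway count of 1 with injury in wild-type became 0 with no filter, the one-way test or without slide 5, 3 when scanning day was the block and 4 under array weights or at 0.05, and was 0 to 2 when single arrays were left out. In Myd88KO it became 3 with array weights. The causes were not tested.

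Samples with the same replicate number share a slide by the file headers, and their deviations from the group means correlated at -0.26 to 0.48 (median 0.24, over 0.1 in 23 of 30 pairs), against a median of -0.08 (35 of 120 over 0.1) for different numbers. Arrays of a slide thus tended to deviate together, though not in every pair, and the fit without a block and the one with it are both given. With the replicate block no member probe was called, the adjusted p of Socs3 with injury in wild-type was 0.0396 and of Il6ra probe 1 0.0276, the pathway count in wild-type was 2 and the count of Stat3 targets between injured genotypes was 0. Il6 and Osm were limited by signal near background: the Il6 difference with injury in wild-type ran from 1.34 to 4.29 over 15 alternatives that of Osm probe 1 from 0.54 to 1.74 and that of Osm probe 2 from 0.19 to 1.54, with the lowest of each under normexp background.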
